A study of Mus musculus with 15 samples.

Results

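The nuclear-encoded subunits of the mitochondrial respiratory chain were examined in the hippocampus of young mice that carried mutant App, human APOE4 or both. Members were all protein-coding genes of the count table whose symbol begins with Nduf, Uqcr, Cox4i, Cox5, Cox6, Cox7, Cox8 or Atp5, together with Sdha, Sdhb, Sdhc and Sdhd. This rule uses names only and gave 94 of the 55471 rows: 36 genes of complex I, 4 of complex II, 8 of complex III, 20 of complex IV, 18 of complex V and the 8 complex I assembly factors Ndufaf1 to Ndufaf8. Of the 94, 89 passed the filter on low counts (more than 1 CPM, the count relative to the library total, in at least 3 of the 15 libraries), which 16171 genes of the table passed.

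The 15 libraries were poly(A) RNA from whole hippocampi of 3-month-old female mice, with 3 libraries in each group. Batch 1 held wild-type (WT), APP-TKI (AppNL-G-F/NL-G-F, homozygous for a knock-in of familial Alzheimer mutations into the endogenous App gene with a humanised Aβ region) and double mutant mice (DM, with that homozygous knock-in and the APOE4 allele), and batch 2 held WT and ApoE4 (ApoE4+/wt) mice. The ApoE4 and DM mice carried a single knocked-in human APOE4 allele beside a mouse Apoe allele, and per the methods DM mice came from a cross of the mutant lines. WT mice were of the C57BL/6JInv strain, and human and mouse APOE counts were combined by the authors, so that the APOE genotype could not be checked in the counts. APOE4 without mutant App was therefore compared with WT only in batch 2, and APOE4 on the mutant App background only in batch 1. The 3 comparisons within batch 1 share libraries in pairs. The labels do not say whether each library came from a separate animal, although a figure caption of the paper gives N for these data in mice per genotype. The p-values measure the spread between these samples. CPM values given from here on were also scaled by upper-quartile factors. Library totals ran from 32754717 to 44630808 counts, and the members took between 0.856% and 1.08% of them. Summed neuron markers, 8 genes, lay between 5240 and 6117 CPM in every library. In 4 libraries of batch 1 (WT 1, APP-TKI 1, APP-TKI 2 and DM 1), long noncoding RNA took 2.65% to 2.88% of counts, against 2.16% to 2.32% in the other 5, and in batch 2 WT 3 and ApoE4 1 stood apart with 1572 and 1870 CPM of summed ependymal and choroid plexus markers against 67.8 to 114 in the others.

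The respiratory chain passes electrons from NADH, at complex I, and from succinate, at complex II, through complex III to oxygen at complex IV, and complexes I, III and IV pump protons as they do so. Complex V, the ATP synthase, lets the protons back and makes ATP. A few hydrophobic core subunits are encoded by the mitochondrial genome, all other subunits by nuclear genes that are translated in the cytosol and imported. Neurons rely on this pathway for the ion pumping that follows synaptic activity, and the hippocampus is among the earliest regions affected in Alzheimer's disease.

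Many promoters of nuclear respiratory genes are known to carry sites for NRF1, for the ETS factor GABPA and for YY1. RefSeq windows of the GRCm38.p6 build, from 250 bases before to 50 after the transcription start, were matched to 75 of the 94 members, 71 of them tested. The NRF1 core GCGCATGC was present on either strand in 12 of the 71 windows (16.9%), against 5.14% of the windows of 10807 other tested protein-coding genes. None of the 4 words searched, here and next, contains another. The YY1 element AAGATGGC was present in 9 (12.7%, against 4.32%), the ETS element CCGGAAG in 17 (23.9%, against 16.9%) and the SP1 box GGGCGG in 32 (45.1%, against 64.4%). A match of letters is a description and not a bound site. The 150 bases before the start are shown for the 4 members with a window that had the lowest p-values in DM against APP-TKI, chosen after their values were seen, with a match that lies within these bases in capitals. The Atp5k stretch carries the NRF1 core on both strands, and the other 3 hold none of the elements.
Atp5o (chr16:91931631-91931780, minus strand): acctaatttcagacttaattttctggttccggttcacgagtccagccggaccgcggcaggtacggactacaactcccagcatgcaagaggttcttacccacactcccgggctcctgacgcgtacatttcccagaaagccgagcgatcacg
Atp5k (chr5:108434400-108434549, minus strand): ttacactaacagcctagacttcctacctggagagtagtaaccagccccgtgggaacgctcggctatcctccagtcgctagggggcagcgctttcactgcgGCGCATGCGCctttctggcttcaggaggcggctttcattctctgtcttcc
Ndufa4 (chr6:11907451-11907600, minus strand): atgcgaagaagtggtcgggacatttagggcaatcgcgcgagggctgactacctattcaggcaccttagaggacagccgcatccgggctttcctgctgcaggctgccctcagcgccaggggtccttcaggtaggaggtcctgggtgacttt
Ndufb3 (chr1:58586247-58586396, plus strand): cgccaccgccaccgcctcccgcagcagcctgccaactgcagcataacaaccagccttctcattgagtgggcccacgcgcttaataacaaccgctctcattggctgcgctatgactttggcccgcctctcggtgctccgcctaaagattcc
In 2 further members, shown for the YY1 element in capitals, the match lay just after the start.
Ndufs6 (chr13:73328433-73328458, minus strand): gtcaccggcAAGATGGCggcggtgct
Atp5j2 (chr5:145191502-145191527, minus strand): caggacttcAAGATGGCgtcactcgg

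The levels of the members spanned a wide range. Expressed as mean CPM per kilobase of exon over the 15 libraries, Cox8a, a small structural subunit of complex IV, was the highest at 479, followed by Cox6a1 at 317 and Cox4i1, the largest nuclear-encoded subunit of the complex, at 266. In complex V the catalytic F1 subunits Atp5b and Atp5a1 had 239 and 236 CPM per kb. In complex III the levels ran from 44.2 for the core protein Uqcrc1 to 158 for the small subunit Uqcr10, in complex II from 20.1 for the membrane anchor Sdhc to 95.3 for the flavoprotein Sdha, and in complex I from 2.77 for Ndufb2 to 89.5 for Ndufa2. The assembly factors, which help to build complex I and are not part of it, ran from 5.03 for Ndufaf2 to 13.6 for Ndufaf1. Per-kilobase levels depend on the annotated exon length, so genes with long annotated exons such as Ndufs1 (18.9) come out low. Ndufb2 was also low in counts before division by length. It had 457 to 787 counts per library, against 4596 to 6634 for Ndufs1. It shares 2.58% of its exon bases on its strand with a protein-coding model at 0 counts (Gm42420). A further 5.37% are shared with genes on the opposite strand, so its value is uncertain.

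**Figure D1:**
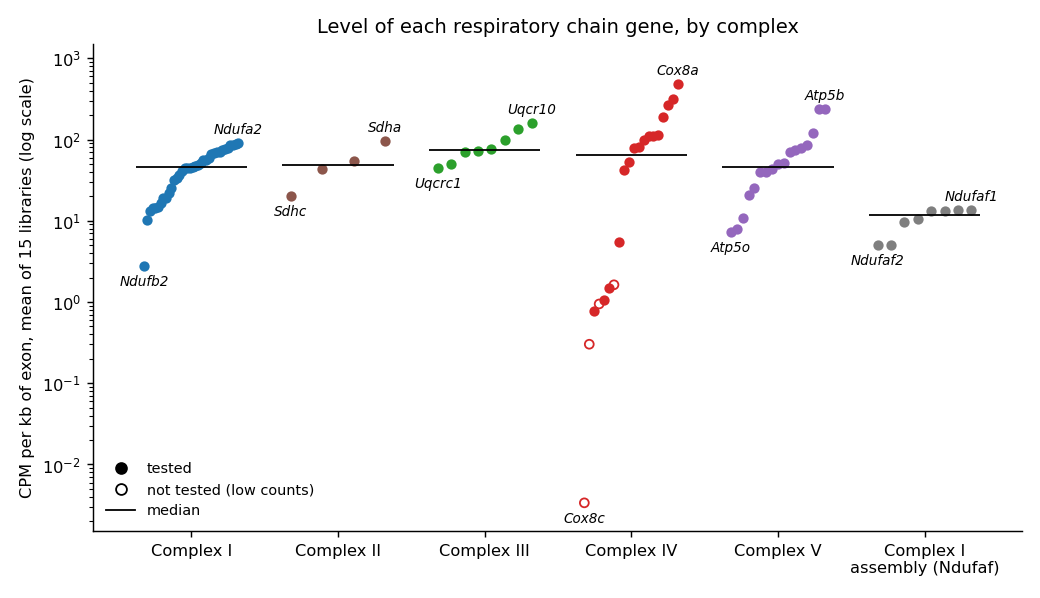
Level of each respiratory chain gene with any count, as mean CPM per kb of exon over the 15 libraries on a log axis, by complex. Filled points were tested, open points were too low to test, and lines are medians of all members of a complex; Cox8a is the highest point (479) and the alternative subunits of complex IV form the low tail.

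Several subunits have alternative genes, known mostly from muscle, lung or testis. In 6 families the common gene took nearly all of the per-kilobase level. Cox4i1 took 99.5% to 99.7% of the Cox4i level in the 15 libraries, Cox6a1 97.5% to 99.2% of Cox6a, Cox6b1 98.7% to 99.4% of Cox6b, Cox7b 99.2% to 99.9% of Cox7b, Cox8a 99.3% to 99.96% of Cox8 and Ndufa4 98.9% to 99.7% of the sum with Ndufa4l2. Of the tested alternative forms, Cox6a2 stood at 5.47 CPM per kb, Cox6b2 at 1.49, Cox4i2 at 1.04 and Ndufa4l2 at 0.778. Cox7a2 took 49% to 56.0% of its family and Cox7a2l, which takes part in joining complexes into supercomplexes, 42.9% to 50.01%. The c-ring of the ATP synthase is made of an identical protein from 3 genes, and Atp5g3 gave 59.9% to 64.1% of their level, Atp5g2 19.4% to 22.4% and Atp5g1 16.2% to 18.03%. The 5 members that were not tested were Cox7a1 (25 to 42 counts per library), Cox8b (3 to 40), Cox7b2 (2 to 14), Cox8c (0 or 1) and a read-through form of Atp5o (0 in all). Cox8b was highest in the WT and the ApoE4 library with high choroid plexus markers, at 0.106, 0.127 and 1.04 CPM in WT of batch 2 and 0.803, 0.182 and 0.162 in ApoE4.

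No member passed an adjusted p of 0.1 in any of the 4 comparisons within a batch or in the comparison of the APOE4 differences (edgeR quasi-likelihood test, Benjamini-Hochberg over 16171 genes). In the tested genes as a whole that threshold was passed by 0.0124% in DM against WT, 0.00618% in APP-TKI against WT, 0.0% in DM against APP-TKI, 0.0% in ApoE4 against WT and 0.0% in the comparison of the differences. At an unadjusted p under 0.05 the members gave 4, 8, 25, 11 and 47 genes in the same order. The shares of all tested genes at that p are given by direction with each comparison below. In DM against WT the 4 members, all higher, were 4.49%, near the 3.69% of tested genes higher. What follows therefore gives direction, size and overlap of libraries. Other tests made a few calls. The robust likelihood ratio test, which is the test named in the study's methods, called 3 members in DM against APP-TKI (of 53 genes). It called 6 in the comparison of the differences (of 121). DESeq2 called 1 member, Atp5o, in DM against APP-TKI (of 18 genes).

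Averaged over the 89 genes on a log2 scale and centred within the batch, the level of the members was lowest in APP-TKI and highest in DM within batch 1. The WT libraries had scores of -0.059, 0.057 and 0.016, the APP-TKI libraries -0.068, -0.118 and -0.020 and the DM libraries -0.014, 0.073 and 0.133. APP-TKI and DM did not overlap, although APP-TKI 3 and DM 1 lay close together, and WT overlapped with both. Same-numbered DM and WT libraries deviated together over all genes, and at each of these 3 numbers DM lay above WT. No label gives such pairs, and DM 2 with WT 3 and DM 3 with WT 2 also correlated (0.108 and 0.115). Unlike-numbered libraries of other groups reached similar values, such as APP-TKI 3 with WT 2 (0.333) and, in batch 2, ApoE4 2 with WT 1 (0.372). Some pairs were negative, such as DM 1 with WT 3 (-0.333). In batch 2 the scores were -0.0064, 0.043 and 0.115 in WT and 0.032, -0.045 and -0.138 in ApoE4, which overlapped. The library with the lowest score in WT and in DM of batch 1 and both lower libraries of APP-TKI were the 4 with high long noncoding RNA, and the highest score of either group of batch 2 belonged to the library with high choroid plexus markers. Among the 4 libraries of high long noncoding RNA the order was APP-TKI (-0.118 and -0.068), WT (-0.059), DM (-0.014), and among the other 5 it was APP-TKI (-0.020), WT (0.016 and 0.057), DM (0.073 and 0.133). This split was made after seeing the data and leaves single libraries in some groups, so the order within it is no test of the share. The part of the long noncoding RNA share in the scores was not tested. In whole tissue, fewer cells of a type and less RNA per cell cannot be told apart.

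**Figure D2:**
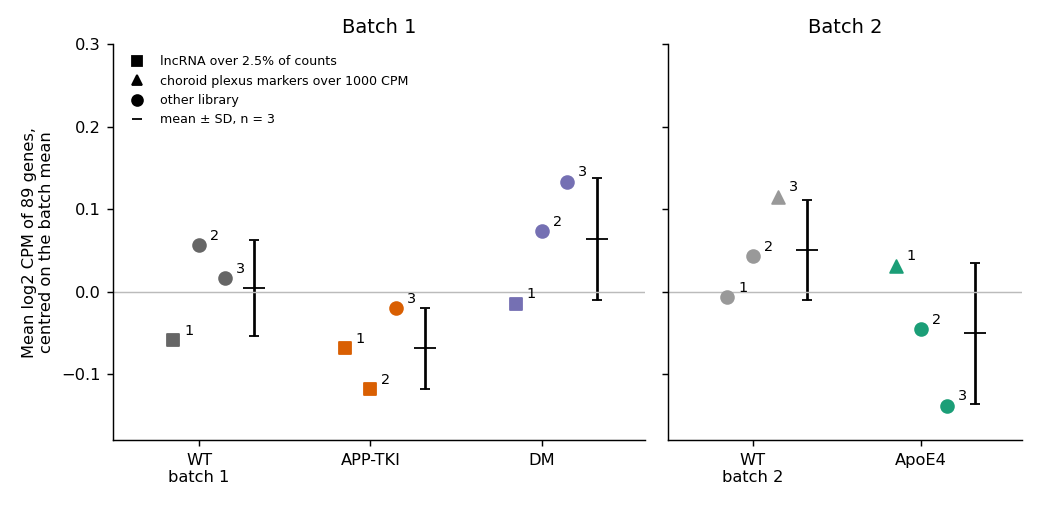
Mean log2 CPM of the 89 tested genes in each library (vertical axis), centred on the mean of its batch, by group and batch, with replicate numbers. Squares mark libraries with over 2.5% of counts from long noncoding RNA and triangles those with over 1000 CPM of choroid plexus and ependymal markers; bars are mean ± SD of 3 libraries. APP-TKI libraries sit between -0.118 and -0.020 and DM libraries between -0.014 and 0.133.

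DM against APP-TKI compares mice with and without APOE4 on the mutant App background. Of the 89 members, 84 were higher and 5 lower in DM, with a median log2 fold change of 0.11, against 0.0012 over all tested genes, of which 50.4% were higher. An unadjusted p under 0.05 was reached by 25 members (28.1%), all higher, against 2.83% of tested genes in that direction and 0.946% in the other. The libraries of the groups did not overlap for 20 members (22.5%), all higher in DM, against 5.03% of all tested genes higher and 2.9% lower. The median was 0.12 in complex I, 0.096 in complex II, 0.12 in complex III, 0.12 in complex IV and 0.11 in complex V, and 0.048 among the 8 assembly factors. Within complex I it was 0.068 for the 7 core subunits, which carry the electron path, and 0.16 for the 29 accessory subunits, which surround it. Their median exon lengths were 2178 and 1251 bases, and with a correction for a trend of counts with exon length the number of members at an unadjusted p under 0.05 went from 25 to 6, the median to 0.080 and the number lower to 14.

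Atp5o had the lowest p-value of the members. It encodes OSCP, the subunit that ties the peripheral stalk of the ATP synthase to F1, and lies at chr16:91925214-91931687 (GRCm38), 6.75 Mb from App on the same chromosome. Its level was 17.1, 16.1 and 12.6 CPM in WT, 11.3, 12.6 and 12.9 in APP-TKI and 16.5, 18.2 and 20.3 in DM. Every DM library was above every APP-TKI library, while WT 3 lay inside the APP-TKI range, WT 1 inside the DM range and WT 2 between them. The log2 fold change of DM against APP-TKI was 0.58 ± 0.12 (SE), with adjusted p = 0.602 by edgeR, and against WT APP-TKI was at -0.31 and DM at 0.26. In batch 2 WT had 11, 13.8 and 13.6 CPM and ApoE4 14.2, 12.6 and 11.5, with overlapping libraries and a log2 fold change of -0.0027. With 387 to 712 counts per library and 7.25 CPM per kb it was the lowest tested member of complex V, far below Atp5h, another peripheral stalk subunit, at 122. The annotation overlaps it on the same strand with a read-through model that joins it to Donson and took 0 counts in every library (12.3% of its exon bases), and on the opposite strand with the antisense gene D430001F17Rik (35.6%), so the value for Atp5o is uncertain. D430001F17Rik was at a log2 fold change of 0.32 in DM against APP-TKI and Donson at -0.23, and neither passed an unadjusted p of 0.05.

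Ndufb9 and Atp5k followed Atp5o by p-value. Ndufb9 (chr15:58933756-58939488) is an accessory subunit of the membrane arm of complex I, and had 18, 20.03 and 19.5 CPM in APP-TKI, 24.1, 24 and 26.6 in DM and 22.4, 24.1 and 19.3 in WT. DM lay above APP-TKI in all libraries (log2 fold change 0.38 ± 0.092 (SE), adjusted p = 0.987 by edgeR). Like Atp5o, it shares exon bases on its strand with another protein-coding model at 0 counts (Gm49356, 19.5% of its exon bases), and its value is uncertain in the same way. Atp5k (chr5:108433244-108434448), subunit e of the ATP synthase, which helps synthases to pair into dimers, had 42.2, 47.3 and 52.9 CPM in APP-TKI and 57.4, 62.8 and 69.3 in DM, with no overlap (log2 fold change 0.41 ± 0.11 (SE), adjusted p = 0.987 by edgeR), while WT spread over both ranges at 58.8, 62 and 47.8.

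Ndufa4, Ndufb3, Uqcr10, Ndufa1 and Ndufs6 came next by p-value and are described here because of that, after their values were seen. Ndufa4, counted here with complex IV, of which it is a subunit, had 159.6, 167 and 158 CPM in WT, 152, 141 and 148 in APP-TKI and 159.8, 170.0 and 186 in DM. All APP-TKI libraries were below all WT and all DM libraries, and DM was higher than APP-TKI by 0.23 ± 0.065 (SE) on the log2 scale. Ndufb3, a membrane arm subunit of complex I, had 47.8, 51.1 and 47.6 CPM in WT, 45.4, 40.5 and 45.4 in APP-TKI and 48.8, 51.7 and 56.1 in DM, the same order without overlap of APP-TKI (0.25 ± 0.073 (SE)). Uqcr10 of complex III had 107, 109 and 108 CPM in WT, 99.7, 96.6 and 102 in APP-TKI and 106, 116 and 125 in DM. Its APP-TKI libraries were also below all others, with DM higher by 0.21 ± 0.064 (SE). Ndufa1 and Ndufs6 were at 0.31 and 0.28, with no overlap between DM and APP-TKI.

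The 5 members lower in DM than in APP-TKI were Ndufb2 (-0.21), Cox7a2l (-0.056), Ndufa4l2 (-0.029), Cox6b2 (-0.027) and Ndufaf4 (-0.012), all with overlapping libraries. Ndufb2 had 13.4, 17.8 and 16.3 CPM in APP-TKI and 14.3, 13.4 and 13.5 in DM (adjusted p = 0.987 by edgeR). A further 10 subunits were taken by name, and all had 95% intervals that include 0. Atp5b had 940.3 ± 42 CPM (SD, n = 3) in APP-TKI and 1001 ± 86.8 in DM, Cox4i1 419.5 ± 16.9 and 439 ± 30.01, Sdha 371 ± 11.5 and 395 ± 19.2, and Ndufv1, which binds NADH, 146 ± 2.98 and 153 ± 12.4. The intervals of their log2 fold changes were -0.072 to 0.25, -0.083 to 0.21, -0.040 to 0.23 and -0.078 to 0.21. The other 6 were Cox5a at 0.15 ± 0.073 (SE), Uqcrc1 at 0.11 ± 0.055 (SE), Sdhb, the iron-sulfur subunit of complex II, at 0.10 ± 0.069 (SE), Atp5a1 at 0.10 ± 0.076 (SE), Uqcrfs1, the Rieske iron-sulfur protein of complex III, at 0.070 ± 0.078 (SE) and Ndufs1 at 0.065 ± 0.077 (SE). Of the 10, Uqcrc1 did not overlap between the groups, with 185, 182 and 170.0 CPM in APP-TKI and 199, 189 and 189.5 in DM. Outside them the core subunit Ndufs3, named after its values were seen, did not overlap either, with 77, 78.1 and 78.1 and 78.7, 80.9 and 81.9.

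Other values moved with this comparison. Endothelial markers were higher in DM for 6 of 6 genes (median log2 fold change 0.61), with a summed level of 49.2 to 67.9 CPM in DM against 36.3 to 41.1 in APP-TKI and 38 to 43.8 in WT, and no marker of the list was at 0. The smallest p-values of the list were those of Pecam1 (0.68) and Cdh5 (0.73). Fibroblast markers were higher for 4 of 4 (median 0.37) and pericyte and smooth muscle markers for 5 of 8 (median 0.17). Neuron markers were higher for 6 of 8 with a median of 0.017. Nuclear long noncoding RNAs were lower in DM for 9 of 10 (median -0.12), with the 4 libraries of high share split 2, 1 and 1 over APP-TKI, DM and WT. Without those 4 libraries, an alternative chosen after seeing the data that leaves a single APP-TKI library whose spread is assumed to be like that of the other groups, the median was 0.11 and 11 members passed an adjusted p of 0.1 (of 163 genes). With the share as a covariate the median was 0.10 and 1 member passed (Ndufa1, of 18 genes). DM 3 had the highest score, and without it the median was 0.082 with 10 members at an unadjusted p under 0.05, without APP-TKI 2 these were 0.082 and 17, and without DM 1 0.16 and 42. For these settings the share of all tested genes at that p is not given. The part of the markers in the result was not tested.

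**Figure D3:**
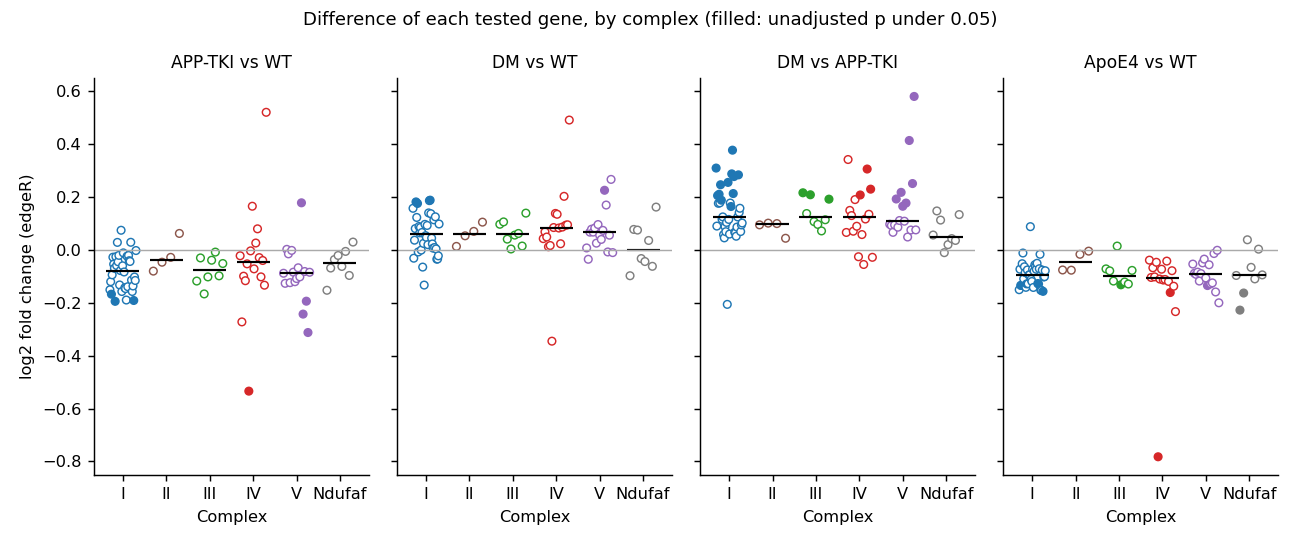
Log2 fold change (edgeR) of each tested gene in the 4 comparisons within a batch, by complex, with Ndufaf for the assembly factors. Each point is a gene, filled where the unadjusted p is under 0.05, and lines are medians; in DM against APP-TKI 84 of 89 points lie above 0 and in ApoE4 against WT 85 of 89 lie below it.

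APP-TKI against WT asks what mutant App does on its own. Of the 89 members 78 were lower and 11 higher in APP-TKI (median -0.073, against 0.013 over all tested genes). At an unadjusted p under 0.05, 7 were lower (7.87%, against 1.37% of tested genes) and 1 higher (1.12%, against 2.19%), and the libraries did not overlap for 13 members lower (14.6%, against 3.56%) and 2 higher (2.25%, against 4.71%). By complex the median ran from -0.089 in complex V and -0.082 in complex I to -0.048 in complex IV and -0.039 in complex II, and 8 of 8 members of complex III were lower. Without APP-TKI 2, the library with the lowest score, the median was -0.046 with 1 member lower at that p, and without WT 2 these were -0.052 and 0. That number was 4 without WT 3 or DM 2, 11 without DM 1, 12 without WT 1 and 22 with the share of long noncoding RNA as a covariate. The share of all tested genes at that p is not given for these settings. With the covariate, genes of the whole table at an adjusted p under 0.1 by edgeR also went from 1 to 37. Nuclear long noncoding RNAs were higher in APP-TKI for 8 of 10 (median 0.11). Ependymal and choroid plexus markers were higher for 6 of 6 (median 0.84, summed 33.6 to 80.4 CPM in APP-TKI and 28.5 to 57.1 in WT), oligodendrocyte markers higher for 6 of 6 (median 0.087) and endothelial markers lower for 5 of 6 (median -0.10). The part of these markers in the result was not tested. Cytosolic ribosomal protein genes were also lower in APP-TKI than in WT, for 55 of 76 (median -0.038). So were mitochondrial ribosomal protein genes for 60 of 77 (median -0.043) and the subunits encoded by the mitochondrial genome for 11 of 13 (median -0.099). Without the 4 libraries of high share, which leaves APP-TKI 3 alone in its group with a spread assumed to be like that of the others, 5 members passed an adjusted p of 0.1 by edgeR (of 342 genes): Ndufa11, Ndufs8, Ndufs7 and Ndufb7 lower and Atp5j2 higher. Over all libraries Ndufs8, Ndufs7 and Ndufb7 overlapped between APP-TKI and WT.

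Ndufa5, an accessory subunit near the quinone site of complex I, had 78.8, 86.5 and 81.7 CPM in WT and 69, 69.9 and 76.8 in APP-TKI, without overlap (log2 fold change -0.20 ± 0.082 (SE), adjusted p = 0.9998 by edgeR). Atp5mpl, a small proteolipid of the ATP synthase, also did not overlap, at 66.2, 75.5 and 65.8 in WT and 56.2, 61.7 and 63.3 in APP-TKI (-0.19 ± 0.082 (SE)). Ndufs8, a core subunit that carries iron-sulfur clusters, overlapped, at 53, 59.7 and 58.7 and 54.9, 47.1 and 48 (-0.19 ± 0.085 (SE)). Atp5j2, subunit f of the synthase, went the other way: it had 129, 138 and 140.3 CPM in WT, 149, 147 and 165 in APP-TKI and 147, 163 and 166 in DM, so that each mutant library was above each WT library (log2 fold change 0.18 ± 0.069 (SE) for APP-TKI, adjusted p = 0.9998, and 0.22 ± 0.068 (SE) for DM, adjusted p = 0.753, by edgeR). These values share the WT libraries. The other member higher without overlap was Ndufa4l2, a low alternative to Ndufa4, at 0.436, 0.615 and 0.553 CPM in WT and 0.731, 0.848 and 0.721 in APP-TKI (0.52 ± 0.33 (SE), adjusted p = 0.9998 by edgeR), from 15 to 20 counts per WT library and 25 to 29 per APP-TKI library. Its DM libraries had 1.06, 0.608 and 0.572, with DM 1 above every APP-TKI library and DM 2 and 3 inside the WT range. Cox7a2l, with 113, 125 and 125 CPM in WT and 125, 124 and 133 in APP-TKI, overlapped (0.078 ± 0.072 (SE)). Atp5j, coupling factor 6 of the synthase, is the member nearest to App, 0.114 Mb away on chromosome 16, and is given for that reason. It was at -0.10 in APP-TKI and 0.072 in DM against WT, with overlapping libraries in both, and at 0.18 ± 0.073 (SE) in DM against APP-TKI (adjusted p = 0.987 by edgeR).

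Cox6a2, the form of subunit 6a known from heart and skeletal muscle, was the member farthest below WT, at 3.60, 6.06 and 5.78 CPM in WT, 3.30, 3.07 and 4.27 in APP-TKI and 3.88, 3.98 and 4.29 in DM of batch 1. WT 1 lay inside the APP-TKI range and below DM, and the log2 fold changes were -0.53 ± 0.20 (SE) for APP-TKI (adjusted p = 0.9998) and -0.35 ± 0.20 (SE) for DM (adjusted p = 0.9999, edgeR). In batch 2 the libraries did not overlap, at 3.62, 2.99 and 4.52 CPM in WT and 2.72, 2.29 and 1.46 in ApoE4 (-0.78 ± 0.26 (SE), adjusted p = 0.761 by edgeR). Cox6a1, the common form, was at -0.054, 0.015 and -0.048 in the same 3 comparisons, and Cox6a2 made up at most 2.52% of the family in any library.

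DM against WT combines both changes. The members were higher for 73 and lower for 16 of 89 genes, with a median of 0.063 against 0.012 over all tested genes. At an unadjusted p under 0.05 there were 4 higher (4.49%, against 3.69% of tested genes) and 0 lower (against 0.866%), and 4 did not overlap, all higher (4.49%, against 7.29%, with 3.14% of tested genes lower). The number higher at that p depended on the setting: it was 1 without DM 3 or WT 3, 2 without APP-TKI 1 or APP-TKI 2, 15 without DM 1, 14 with the share of long noncoding RNA as a covariate and 23 without the 4 libraries of high share. With same-numbered libraries as a block it was 6, and 11 genes of the table, none of them a member, then passed an adjusted p of 0.1 by edgeR, against 2 without the block. With the covariate 46 genes of the table passed. The share of all tested genes at an unadjusted p under 0.05 is not given for these settings. The 4 at that p were Atp5j2, Ndufa13 (0.18 ± 0.068 (SE)), Ndufa3 (0.17 ± 0.078 (SE)) and Ndufc1 (0.19 ± 0.083 (SE)). Ndufa13, an accessory subunit of complex I also known as GRIM-19, had 83.6, 85.8 and 81.7 CPM in WT and 87.4, 94.1 and 103 in DM. Ndufa3 had 54.6, 57.4 and 52.1 and 54.6, 62.6 and 67.8, with DM 1 inside the WT range. The members lower with the smallest p, besides Cox6a2, were Ndufb2 (-0.13 ± 0.11 (SE)), Ndufaf7 (-0.063 ± 0.062 (SE)), Ndufaf1 (-0.10 ± 0.10 (SE)) and Ndufb10 (-0.066 ± 0.082 (SE)), all with overlapping libraries. The median was 0.020 without DM 3, 0.025 without WT 1, and 0.0064 with the correction for exon length, under which 42 of the 89 were lower. Endothelial markers were higher in DM than in WT for 6 of 6 genes (median 0.43), fibroblast markers for 4 of 4 (median 0.44), pericyte and smooth muscle markers for 7 of 8 (median 0.22), oligodendrocyte markers for 6 of 6 (median 0.13) and ependymal and choroid plexus markers for 5 of 6 (median 1.23), and their part in the result was not tested.

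**Figure D4:**
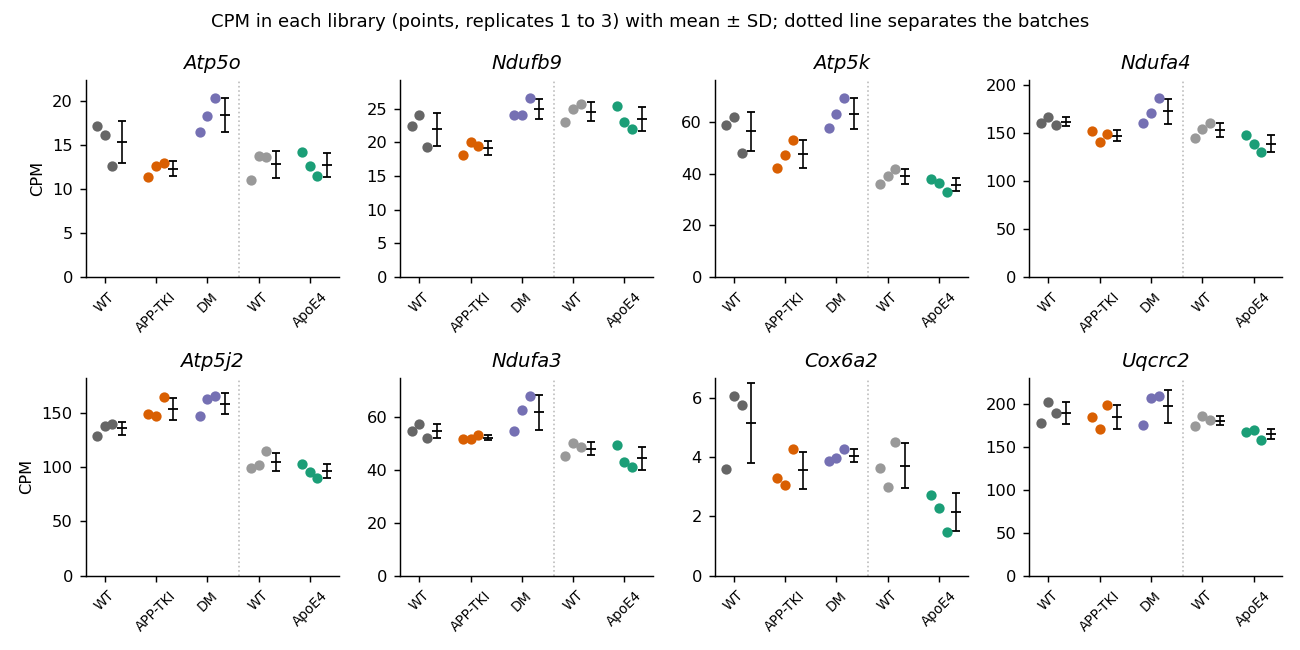
CPM of 8 members in each library (vertical axes start at 0), by group, with mean ± SD of 3 libraries; the dotted line separates batch 1 (WT, APP-TKI, DM) from batch 2 (WT, ApoE4). DM points lie above APP-TKI points for Atp5o, Ndufb9, Atp5k, Ndufa4 and Ndufa3, and ApoE4 points lie below WT for Cox6a2 and Uqcrc2.

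ApoE4 against WT compares a single APOE4 allele with none, without mutant App. Of the 89 members 85 were lower and 4 higher in ApoE4, with a median of -0.095 against -0.011 over all tested genes. An unadjusted p under 0.05 was reached by 11, all lower (12.4%, against 2.76% of tested genes lower and 3.23% higher), and 18 did not overlap, all lower (20.2%, against 6.79% lower and 5.39% higher). The medians of complexes I, III, IV and V lay between -0.11 and -0.091, with 16 of 16 members of complex IV and 17 of 17 of complex V lower, and complex II was at -0.047. The members higher were Ndufb2 (0.086), Ndufaf4 (0.037), Uqcrc1 (0.013) and Ndufaf7 (0.0015).

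Uqcrc2, a core protein of complex III, had 175, 186 and 182 CPM in WT and 167, 169 and 158 in ApoE4, with no overlap (log2 fold change -0.13 ± 0.046 (SE), adjusted p = 0.761 by edgeR). Its partner core protein Uqcrc1 had 174, 171 and 179.7 and 182, 179 and 168, which overlapped. Ndufa12 and its paralog Ndufaf2, the assembly factor that holds its place while complex I is built, were both lower without overlap: Ndufa12 had 68.7, 67.9 and 70.8 in WT and 66.1, 62.7 and 59.97 in ApoE4 (-0.13 ± 0.051 (SE)), and Ndufaf2 14.5, 15.2 and 14.9 and 14, 12.5 and 11.6 (-0.23 ± 0.087 (SE)). Atp5h had 178, 182 and 192 and 173, 169.8 and 159.6 (-0.14 ± 0.050 (SE)), again without overlap. Among abundant subunits, Atp5b had 1051, 1090.3 and 1112 CPM in WT and 1037, 1046 and 975 in ApoE4, without overlap, at -0.089 ± 0.052 (SE). Ndufs1, the largest core subunit of complex I, had 152, 168 and 169 and 146, 154 and 148, with ApoE4 2 just above WT 1 (-0.13 ± 0.052 (SE)).

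WT 3 and ApoE4 1, the libraries with high choroid plexus markers, were also the highest of their groups in the member score. Without both, an alternative chosen after seeing the data, the median was -0.11, 84 of 89 were lower and 4 members, all lower, had an unadjusted p under 0.05. Without ApoE4 3 the median was -0.053 with 1 member below that p, without WT 3 -0.068 with 0, and without WT 2 -0.097 with 3. That number was 6 without ApoE4 2, 19 without WT 1 and 22 without ApoE4 1. With the correction for exon length the median was -0.081 and 6 members were at that p. For these settings the share of all tested genes at that p is not given, so these counts have no background beside them. Ependymal and choroid plexus markers were higher in ApoE4 for 6 of 6 genes and pericyte and smooth muscle markers lower for 8 of 8 (median -0.27, summed 135 to 165 CPM against 183 to 186 in WT), with no marker of either list at 0. Endothelial markers were lower for 6 of 6 (median -0.11, summed 73.9 to 94.3 CPM against 83.4 to 105 in WT), fibroblast markers for 4 of 4 (median -0.25) and erythrocyte markers for 4 of 4 (median -0.24). Their part in the result was not tested.

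The APOE4 difference on the mutant App background was compared with that without mutant App, as DM minus APP-TKI less ApoE4 minus WT, in a fit of all 15 libraries. The 2 contrasts share no library. The difference of differences was above 0 for 86 of 89 members and below for 3, with a median of 0.22 against 0.012 over all tested genes. At an unadjusted p under 0.05, 47 members were above 0 (52.8%, against 4.06% of tested genes) and 0 below (against 2.79%). Of the 89 members, 82 (92.1%) were lower in ApoE4 than in WT and higher in DM than in APP-TKI, a pattern of 31.1% of all tested genes. The direction was not particular to the members. The difference of differences was above 0 for 73 of 76 cytosolic ribosomal protein genes (median 0.13, 16 at that p). For mitochondrial ribosomal protein genes it was above 0 for 70 of 77 (median 0.11, 9 at that p). The batch and the presence of mutant App cannot be told apart in this comparison. Endothelial markers were above 0 for 6 of 6 genes (median 0.81, 5 at an unadjusted p under 0.05), pericyte and smooth muscle markers for 7 of 8 (median 0.43) and fibroblast markers for 4 of 4 (median 0.57), and their part in the result was not tested. With the correction for exon length the median was 0.16 and 19 members were at that p, and leaving out single libraries gave medians of 0.18 to 0.26 and 25 (without ApoE4 3) to 61 (without DM 1) members above 0, with 27 without DM 3, 28 without WT 3 of batch 2 and 30 without APP-TKI 2. For these settings too the share of all tested genes at that p is not given.

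The members with the lowest p-values in it, named after seeing them, were Ndufa4 (0.37 ± 0.092 (SE), adjusted p = 0.588 by edgeR), Ndufb3 (0.37 ± 0.093 (SE), adjusted p = 0.589), Ndufs6 (0.44 ± 0.12 (SE)), Atp5mpl (0.41 ± 0.11 (SE)) and Atp5k (0.54 ± 0.15 (SE)). Ndufa4 had 145, 154 and 159.9 CPM in WT of batch 2 and 148, 138 and 130.5 in ApoE4, and Ndufb3 52.8, 54.8 and 58 and 53.3, 50.6 and 49.3. In both, ApoE4 2 and 3 lay below all WT libraries and ApoE4 1 just above WT 1. Cox6a2 had the largest estimate, 0.97 ± 0.34 (SE), most of it from the ApoE4 side, and Atp5o reached 0.58 ± 0.18 (SE), nearly all of it from the mutant App side. Below 0 were Ndufb2 (-0.29), Ndufaf4 (-0.049) and Cox7a2l (-0.013). By complex the medians were 0.23 in complex I, 0.14 in complex II, 0.24 in complex III, 0.21 in complex IV and 0.23 in complex V, and 0.15 among the assembly factors.

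**Figure D5:**
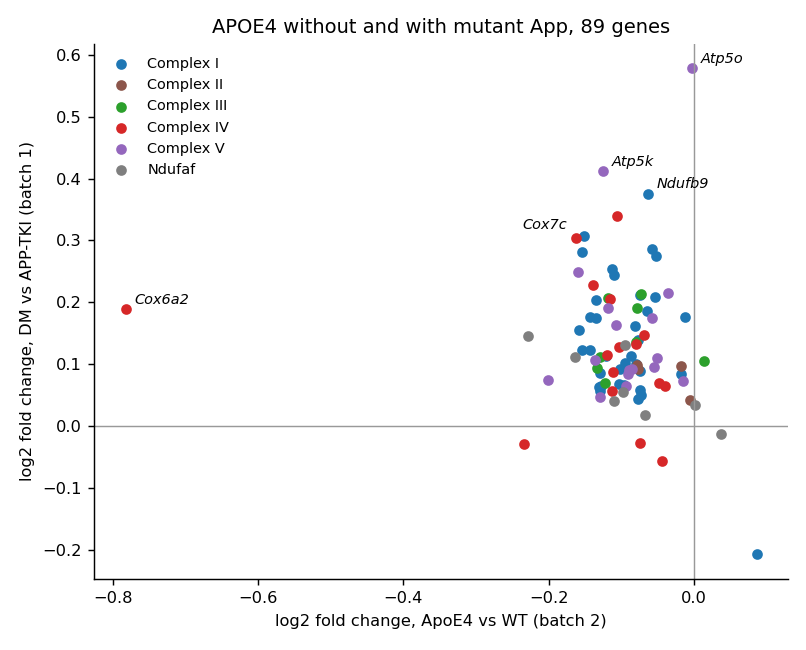
Log2 fold change of each of the 89 genes in ApoE4 against WT (horizontal axis, batch 2) and in DM against APP-TKI (vertical axis, batch 1), coloured by complex. 82 of 89 points lie in the upper left quadrant, lower in ApoE4 and higher in DM; Atp5o stands near 0 on the horizontal axis and Cox6a2 far to the left.

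The promoter elements were set beside these values. In DM against APP-TKI the median log2 fold change was 0.10 for the 12 members with the NRF1 core and 0.11 for the 59 without, 0.11 for the 17 with the ETS element and 0.11 for the 54 without, and 0.14 for the 9 with the YY1 element and 0.11 for the 62 without. In the difference of differences the corresponding medians were 0.18 and 0.23, 0.22 and 0.22, and 0.23 and 0.21. For the 32 members with the SP1 box and the 39 without, the medians were 0.106 and 0.115 in DM against APP-TKI. In the difference of differences they were 0.208 and 0.217. Exon length was set beside them too. Across the 89 members Spearman's rho between exon length and log2 fold change was -0.39 in DM against APP-TKI and -0.35 in DM against WT. It was 0.20 in APP-TKI against WT, 0.29 in ApoE4 against WT and -0.44 in the difference of differences. These values are a description across genes of the same libraries. The median exon length was 1675 bases in the members and 4602 in all tested protein-coding genes.

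Neighbouring parts of the pathway were taken from lists that the naming rule does not use. The 13 subunits encoded by the mitochondrial genome had medians of -0.099 in APP-TKI against WT, 0.045 in DM against APP-TKI and 0.0026 in ApoE4 against WT, where 5 of 13 were lower. The smallest p-values were those of mt-Nd6 (-0.31) and mt-Atp6 (-0.40) in APP-TKI against WT, of mt-Atp6 (0.43) and mt-Nd4l (0.67) in DM against APP-TKI and of mt-Co1 (-0.051) and mt-Co2 (0.13) in ApoE4 against WT, and none passed an adjusted p of 0.1. Counts in this list were very uneven. Mean CPM in DM and APP-TKI were 7.62 and 5.66 for mt-Atp6 and 1.89 and 1.18 for mt-Nd4l. The mean of mt-Co1 in ApoE4 was 16116. The fold changes of genes with such low counts, and the medians that include them, are uncertain. Whether the low counts reflect low levels of these transcripts or how their reads were counted was not tested. Of the 13 enzymes of the citric acid cycle, which feeds NADH and succinate to the chain, 12 were higher in DM than in APP-TKI (median 0.059) and 12 lower in ApoE4 than in WT (median -0.089), with the smallest p for Cs (0.059) and Idh3b (0.086) in the former and for Sucla2 and Idh3g, at -0.11 each, in the latter. Cycs, cytochrome c, which carries electrons from complex III to complex IV, was at 0.12 in DM against APP-TKI and -0.17 in ApoE4 against WT, and Cyc1 of complex III at 0.034 and -0.034. Of 37 tested assembly factors outside the naming rule, 25 were higher in DM than in APP-TKI (median 0.023) and 26 lower in ApoE4 than in WT (median -0.038), with the smallest p for Sdhaf4, of complex II (0.25), and Nubpl, of complex I (0.30), in the former and for Pet100, of complex IV (-0.20), and Sdhaf1, of complex II (-0.18), in the latter. The 16 regulators of respiratory genes, among them Ppargc1a, Esrra and Nrf1, had medians of 0.0082 and -0.042 in the same comparisons, with the smallest p for Twnk (0.12) and Esrrg (0.17) in the former and for Esrrb (-0.94) and Esrrg (-0.27) in the latter. Ribosomal protein genes, a further set of short and abundant transcripts, had medians of 0.074 (cytosolic, 68 of 76 higher) and 0.044 (mitochondrial, 64 of 77 higher) in DM against APP-TKI. In ApoE4 against WT the medians were -0.050 (72 of 76 lower) and -0.059 (63 of 77 lower).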

How the data were processed

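Libraries were poly(A)-enriched, directional and paired-end (150 bases). Per the submitters' notes and the study's methods, the authors trimmed reads with Trimmomatic 0.39, aligned them by STAR 2.7.1a against GENCODE M24 plus a human APOE transcript, and counted them per gene with HTSeq 0.11.2, combining human and mouse APOE. Whether counting used strand is not given in the sources read. The deposited values are raw counts. Gene names, coordinates and exon lengths were taken from GENCODE M21 (GRCm38), which held 55144 of the 55471 identifiers.

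Genes above 1 CPM in at least 3 of 15 libraries were tested with edgeR 4.0.16 (R 4.3.3) by quasi-likelihood with upper-quartile scaling, Benjamini-Hochberg adjusted over 16171 genes, at adjusted p under 0.1. Batch 1 (9 libraries) and batch 2 (6) were fitted apart, and all 15 together for the difference of differences. The filter used CPM of library totals, and CPM in the text were scaled by the upper-quartile factors. Alternatives were DESeq2 1.42.0, the robust likelihood ratio test, other scalings and filters, exon-length offsets, added near-identical copies (BLAST 2.17.0, at least 95% identity; 45 copies of 24 members), a replicate block and leaving out each library. 3 alternatives, on long noncoding RNA and choroid plexus markers, were chosen after seeing the data. Shares of all tested genes at an unadjusted p under 0.05 are given for the main fits only, not for alternatives. Same-numbered DM and WT libraries deviated together (correlations 0.446, 0.194 and 0.300), with no label for a pairing. DM 2 with WT 3 and DM 3 with WT 2 were at 0.108 and 0.115. Unlike-numbered APP-TKI 3 with WT 2 was at 0.333, ApoE4 2 with WT 1 of batch 2 at 0.372 and DM 1 with WT 3 at -0.333. The main fits had no replicate block, and the blocked fit, an alternative, called no member.

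Members and lists were chosen with earlier results of these data known. Members named were those called, the 5 lower and 3 higher with the smallest p in each comparison within a batch, 10 subunits listed by name, subunits with alternative genes and the highest and lowest of each complex; of the other lists, the 2 with the smallest p were given only for pathway lists, mainly in the APOE4 contrasts, and for endothelial markers. 29 members overlap another gene on the opposite strand and 6 on the same strand, and their values are uncertain to that extent.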

Additional observations from a re-analysis of the deposited data

How the results depend on the processing

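The median difference of the 89 members kept its direction in all 5 comparisons under every alternative run, but not its size. In DM against WT most of the median was lost with the correction for exon length, as given above. With that correction, members at an unadjusted p under 0.05 by edgeR went from 25 to 6 in DM against APP-TKI. In the difference of differences they went from 47 to 19. How the share of all tested genes at that p changed with the correction is not given. The number of members called at adjusted p under 0.1, 0 by edgeR's quasi-likelihood test, was 1 in DM against APP-TKI by DESeq2 (Atp5o), 3 by the robust likelihood ratio test, 4 without the filter on low counts, 1 with long noncoding RNA share as a covariate and 11 without the 4 libraries of high share. In the difference of the APOE4 differences it was 6 by the robust likelihood ratio test and 7 without the filter. Without the high-share libraries it was 5 in APP-TKI against WT and 4 in DM against WT, where the covariate gave 1. It was 0 in ApoE4 against WT under all, and 0 in all comparisons when any single library was left out. With a replicate block the medians were 0.064 in DM against WT, -0.076, 0.11, -0.097 and 0.22 in the other comparisons in the order APP-TKI against WT, DM against APP-TKI, ApoE4 against WT and the difference of differences, with 0 members called, while the calls over all genes went from 2 to 11 in DM against WT, from 1 to 9 in APP-TKI against WT and from 0 to 1 in DM against APP-TKI; outside DM against WT the samples share only a number, and ApoE4 against WT then had 3 members at an unadjusted p under 0.05 against 11. Leaving out single libraries turned the sign of small differences: in DM against APP-TKI Cox6b2 ran from -0.25 to 0.087, Cox7a2l from -0.10 to 0.012, Ndufa4l2 from -0.37 to 0.13 and Ndufaf4 from -0.055 to 0.056, Ndufb10 in DM against WT from -0.14 to 0.0047, and Uqcrc1 in ApoE4 against WT from -0.0095 to 0.047. The cause of these changes was not tested beyond the smaller number of samples.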
